A study of Mus musculus with 6 samples.

Results

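Voltage-gated calcium channels let calcium into excitable cells when the membrane depolarises. Each is built on a pore-forming alpha1 subunit. In high-voltage-activated channels, such as the L-type, the pore is joined by an intracellular beta subunit and an extracellular alpha2delta subunit, which set its trafficking and gating, and in skeletal muscle also by a gamma subunit. In heart muscle the L-type channel carries the calcium that triggers release from the sarcoplasmic reticulum at each beat. T-type channels open at more negative voltages and close quickly; they are prominent in the fetal heart and in adult pacemaker and conduction cells and scarce in adult ventricular muscle.

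The members were 10 genes fixed by name, against 18193 genes with a probe set of their own on the array: the L-type pores Cacna1c, Cacna1d and Cacna1s, the T-type pores Cacna1g and Cacna1h, the beta subunits Cacnb2 and Cacnb3, the alpha2delta subunits Cacna2d1 and Cacna2d2, and the gamma subunit Cacng6. Every probe set annotated to exactly 1 of them was taken, which gave 20 probe sets for 9 genes. Cacnb3 had no such probe set and was not analysed here. RNA from mouse heart was measured on Affymetrix whole-genome expression arrays, 3 from C57BL/6 mice overexpressing hAT1R, the human type 1 angiotensin II receptor, and 3 from normal C57BL/6 mice. The design describes the hearts as matched for age and sex but gives no age, and the sex markers given below were not balanced between the groups. Neither the promoter nor the cell type that drives the receptor is named in the labels. No label says that each array came from a separate animal. A p-value here therefore measures only spread among these 6 samples, which may be technical in part. So few arrays also limit the precision.

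The name typed into each array's instrument record opposed its label: arrays labelled transgenic carried "control" and the others "transgene". Groups follow the labels, and the sign of every difference would turn with the typed names. Myh7, the slow myosin heavy chain, differed by 4.65 ± 0.30 and Nppa, atrial natriuretic peptide, by 2.19 ± 0.17 (log2 change ± SE, adjusted p = 0.0101 and adjusted p = 0.015 in limma with 1 probe set per gene). All 10 cardiomyocyte markers were measured, and their summed log2 level was 18.47 to 18.49 on labelled transgenic and 18.47 to 18.50 on non-transgenic arrays. The brightest genes, such as Myh6 and Myl3, set that sum, so it says little of the dimmer ones. Of the 10 changes, 6 were positive and 4 negative, from -0.29 for Ryr2 to 0.13 for Mybpc3, and none passed. The groups did not overlap for Ryr2 and Actc1, which were lower, or for Mybpc3 and Actn2, which were higher. Whether the share of cardiomyocytes was equal was not tested. Xist, an X-inactivation RNA made in females, was at 9.48 to 9.69 on labelled transgenic arrays 1 and 3 and non-transgenic array 2 and at 2.49 to 3.01 on the other 3. Eif2s3y, a Y-linked gene, was at 2.63 to 3.58 on the former arrays and at 9.17 to 9.25 on the latter. Both patterns occurred in each group, so the arrays of a group did not all come from the same animal. How many animals they stand for is not given. The female pattern was on more labelled transgenic than non-transgenic arrays, so the stated match in sex is not borne out. Fluidics station 2 processed the whole labelled transgenic group plus non-transgenic array 1, and station 3 the remaining pair. The scanner read the labelled transgenic arrays first and the non-transgenic ones after, so scan order and group cannot be told apart.

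Values are on the log2 scale, so a difference of 1 is a doubling. A probe set whose mean over the 6 arrays lay at or below 3.285, the median of that mean over all probe sets, was taken as near the background and was not tested. Of the 20 calcium channel probe sets, 14 were tested and 6 were near the background. Cacna1d was near the background with both of its probe sets, and Cacna1h, Cacna2d1, Cacna2d2 and Cacng6 with 1 probe set each. Levels of different probe sets are not comparable with each other, because probes differ in how strongly they bind.

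**Figure D1:**
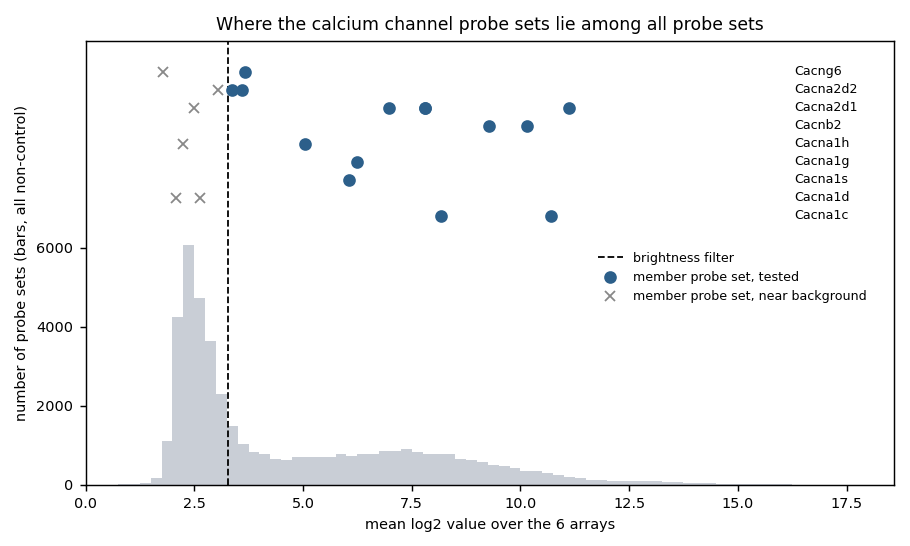
Mean log2 value over the 6 arrays (x axis) of all non-control probe sets, as bars (y axis, number of probe sets per bin of 0.25), with the 20 calcium channel probe sets marked above in 1 row per gene. Circles are the 14 tested probe sets and crosses the 6 near the background, and the dashed line is the brightness filter at 3.285; the rows are offset only to separate genes.

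No calcium channel gene passed the test for a group difference. Cacna1h, which encodes the T-type pore Cav3.2, had the smallest p and a lower mean on the labelled transgenic arrays. Cacna1g, which encodes the T-type pore Cav3.1, came next with a higher mean, followed by a dimmer probe set of the L-type pore Cacna1c with a lower one. None of the 14 tested probe sets passed an adjusted p of 0.05 in limma, where 0.218% of all 22518 probe sets tested did, and 3689 of those were at an unadjusted p under 0.05. At an unadjusted p under 0.05 there were 3 of 14, against 16.4% of all probe sets tested. The groups did not overlap at 2 of 14, against 23% of all. A change of over 0.5 in size was seen at 3 of 14, against 6.68% of all. These 3 were Cacna1g, Cacna1h and 1 Cacna2d1 probe set with wide spread. The median change of the 14 was -0.04, with 6 positive and 8 negative, and their median size of change was 0.12, against 0.0097 and 0.13 over all probe sets tested.

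**Figure D2:**
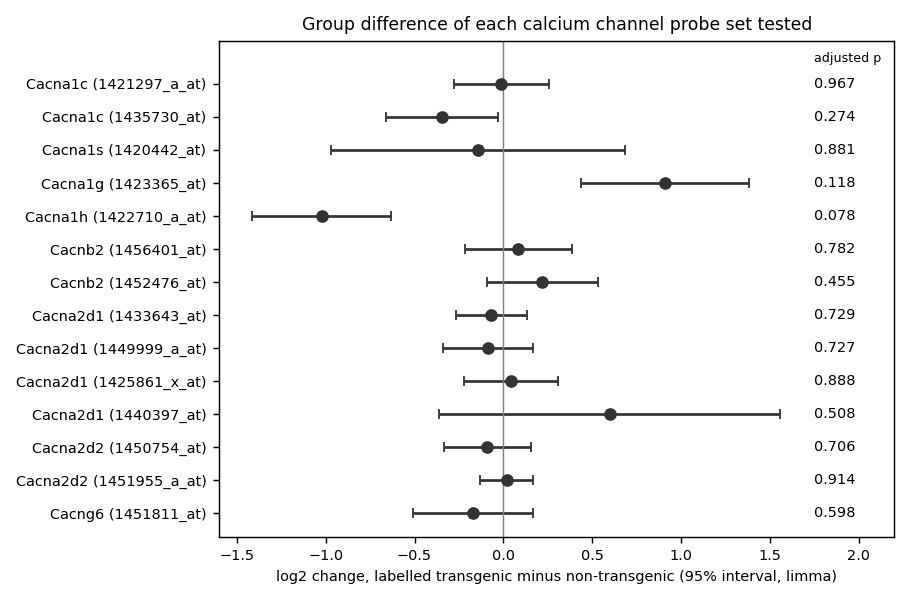
Log2 change (x axis, labelled transgenic minus non-transgenic mean, 3 arrays each) of the 14 calcium channel probe sets tested, with limma's 95% interval as the bar and the adjusted p at the right. Cacna1g at 0.91 and Cacna1h at -1.02 lie farthest from 0 on either side, and their intervals and that of the dimmer Cacna1c probe set leave out 0.

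Cacna1g was measured by 1 probe set (1423365_at). Its log2 values were 6.81, 6.46 and 6.81 on labelled transgenic arrays 1 to 3 and 5.98, 5.99 and 5.39 on the non-transgenic ones. Every labelled transgenic array lay above every non-transgenic one, and non-transgenic array 3 was the lowest of all. The means were 6.69 ± 0.20 and 5.79 ± 0.34 (SD, n = 3), a change of 0.91 ± 0.19 (SE), or 1.88-fold with a 95% interval from 1.35 to 2.60-fold. The unadjusted p was 0.00315, the 599th smallest of 22518, and the adjusted p from limma was 0.118. It did not pass the threshold. Fitting the fluidics station as a block gave a change of 0.72 (adjusted p = 0.31).

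Cacna1h had a dim but measurable probe set (1422710_a_at) and a second near the background. The first gave log2 values of 4.38, 4.59 and 4.64 on the labelled transgenic arrays and 5.67, 5.79 and 5.23 on the non-transgenic arrays. All 3 labelled transgenic values lay below all 3 others. The means were 4.54 ± 0.14 and 5.56 ± 0.29 (SD, n = 3), a change of -1.02 ± 0.16 (SE), which is 2.03-fold lower with a 95% interval from 1.55 to 2.67-fold. It ranked 183rd by p (0.000649), and its adjusted p from limma was 0.078. Among probe sets with a mean of at least 5 it passed, at adjusted p = 0.0488 in a limma fit to fewer probe sets. Its own mean, 5.05, lay just inside that limit. All 3 labelled transgenic values were below 5, so it entered that fit only through its non-transgenic values, and the pass is no separate support. Its second probe set (1427607_at) stayed between 2.19 and 2.25 on all arrays close to the background.

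The T-type pair was also set side by side on each array. The Cacna1g value minus the Cacna1h value was 2.42, 1.87 and 2.17 on the labelled transgenic arrays and 0.31, 0.20 and 0.15 on the non-transgenic arrays. It averaged 2.15 ± 0.28 against 0.22 ± 0.08 (SD, n = 3) and is not a ratio of the transcripts. The pair was chosen with its values known and the group gap is the sum of both changes, so it is a description with no test. Among the non-transgenic arrays both genes were lowest on array 3. With 1 probe set per gene, where 0.563% of 11016 genes passed at an adjusted p of 0.05 and 18.5% at an unadjusted p under 0.05, Cacna1h was at adjusted p = 0.0593 and Cacna1g at adjusted p = 0.0944 in limma.

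Among the L-type pores, Cacna1c encodes Cav1.2, the main L-type pore of ventricular muscle. Its brighter probe set (1421297_a_at) read 10.88, 10.53 and 10.68 on the labelled transgenic arrays and 10.81, 10.62 and 10.69 on the non-transgenic arrays. The groups overlapped fully, and the change was -0.01 ± 0.11 (SE), with a 95% interval from -0.28 to 0.25 (limma, adjusted p = 0.967). The dimmer probe set (1435730_at) read 8.19, 7.78 and 8.02 against 8.38, 8.45 and 8.18. There the groups met, since labelled transgenic array 1 was level with non-transgenic array 3, and the change was -0.34 ± 0.13, with an interval from -0.66 to -0.03 (unadjusted p = 0.0373, adjusted p = 0.274). The intervals of the 2 probe sets overlap. Brighter minus dimmer came to 2.70 ± 0.04 with the transgenic label and 2.37 ± 0.18 without it (SD, n = 3), without overlap (2-sided exact permutation p = 0.1, the smallest that 3 against 3 arrays allow, so a difference between the probe sets is not shown). Which part of the transcript each probe set reads is not given in the sources used here.

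Cacna1s encodes Cav1.1, the L-type pore known as the voltage sensor of skeletal muscle. Its probe set read 5.82, 6.22 and 5.93 on the labelled transgenic arrays and 6.93, 5.75 and 5.71 on the others. Non-transgenic array 1 stood above every other array, and the other 5 spanned 5.71 to 6.22. The change was -0.14 ± 0.34 (SE, limma, adjusted p = 0.881). It became 0.26 (adjusted p = 0.432) without non-transgenic array 1 and -0.94 (adjusted p = 0.137) when the station was blocked, a fit in which only that non-transgenic array shares a station with the transgenic ones. Skeletal muscle markers give no single picture on that array: Tnni2, fast skeletal troponin I, was at 4.11 there and at 3.52 to 3.54 on the other 5, while Acta1, skeletal alpha actin, was at 12.36, its lowest value of the 6. Of the 10 skeletal muscle markers, 5 lay near the background, among them the fast myosins Myh1 and Myh2. The summed level of the measured ones was 15.54 to 15.86 on labelled transgenic against 14.92 to 15.12 on non-transgenic arrays. The gap in that sum is all Acta1, at a change of 2.07. Ckm and Tnni2 were lower, at -0.17 and -0.19, and Myh4 and Mylpf differed by 0.02 and 0.09. Acta1 stood at adjusted p = 0.0467 in limma with 1 probe set per gene, where it alone of the list passed. In the limma fit to all probe sets it was at adjusted p = 0.0671 and did not pass. The part of skeletal muscle RNA in the Cacna1s values was not tested.

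Cacna1d encodes Cav1.3, the L-type pore of pacemaker and atrial cells. Its probe sets were near the background, at 2.58 to 2.72 and at 2.04 to 2.09 over all 6 arrays. A level this low allows no statement on a group difference. Fewer cells of a type and less RNA per cell cannot be told apart in RNA from heart tissue, for this and every gene here.

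**Figure D3:**
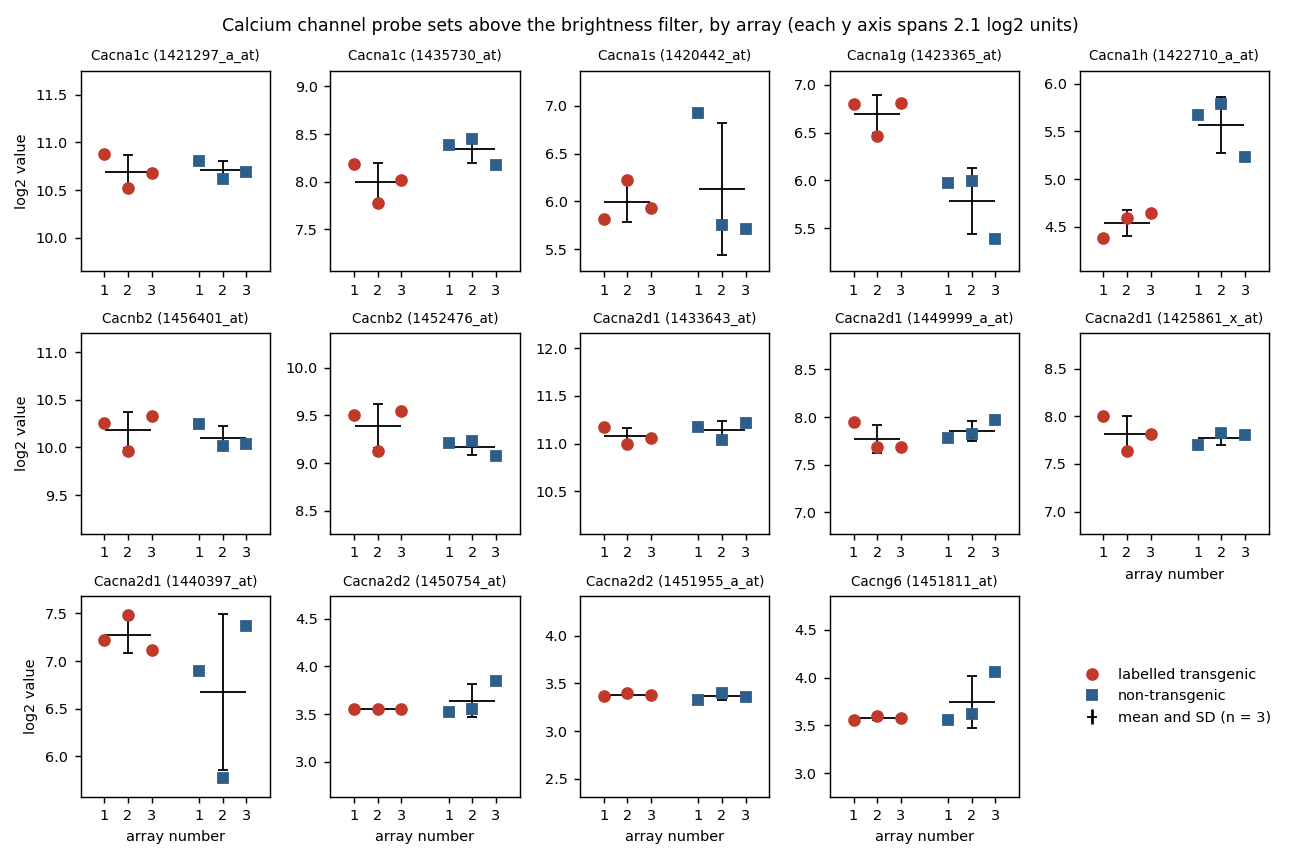
Log2 value (y axis, each panel spanning 2.1 units) of the 14 tested calcium channel probe sets on each array (x axis, array number within its group), with circles for labelled transgenic and squares for non-transgenic arrays and the mean and SD of 3 arrays as lines. The groups separate for Cacna1g and Cacna1h and overlap or meet in the other panels; single non-transgenic arrays stand apart for Cacna1s and for the Cacna2d1 probe set 1440397_at.

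Cacnb2 encodes the main beta subunit of the cardiac L-type channel, a chaperone that brings the pore to the membrane. Its brighter probe set (1456401_at) read 10.26, 9.96 and 10.33 on the labelled transgenic arrays and 10.25, 10.01 and 10.04 on the others. The change was 0.08 ± 0.12 (SE), with an interval from -0.21 to 0.38 (limma, adjusted p = 0.782). Its other probe set (1452476_at) read 9.50, 9.12 and 9.54 against 9.21, 9.23 and 9.08, a change of 0.22 ± 0.13 with an interval from -0.09 to 0.53 (adjusted p = 0.455). Labelled transgenic arrays 1 and 3 lay above the non-transgenic ones in the latter, and array 2 lay among them.

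Cacna2d1 encodes the alpha2delta-1 subunit, the binding site of gabapentin and the main alpha2delta of heart muscle. Its brightest probe set (1433643_at) read 11.17, 11.00 and 11.06 against 11.18, 11.04 and 11.21, with a change of -0.07 ± 0.08 (SE) and an interval from -0.27 to 0.13 (limma, adjusted p = 0.729). Probe sets 1449999_a_at and 1425861_x_at gave changes of -0.09 ± 0.10 and 0.04 ± 0.11. These 3 overlapped between the groups, and none of their intervals reached 0.5 in either direction. Another probe set (1440397_at) read 7.22, 7.49 and 7.12 against 6.89, 5.77 and 7.36. Its change of 0.60 ± 0.39 (adjusted p = 0.508) rested on single arrays: it was 0.15 without non-transgenic array 2 and 0.94 without non-transgenic array 3. The last (1441608_at) was near the background, at 2.31 to 2.33 on 5 arrays and 3.42 on non-transgenic array 3.

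Cacna2d2, which encodes alpha2delta-2, and Cacng6, a gamma subunit, lay at the edge of the filter. The 2 tested Cacna2d2 probe sets had means of 3.60 and 3.37, just above the limit of 3.285, and the third, at 3.05, fell just below it. For Cacng6 the tested probe set had a mean of 3.66 and the other one of 1.79. On all arrays but non-transgenic array 3 the 3 tested probe sets stayed between 3.33 and 3.62. On that array Cacng6 was at 4.06 and the brighter Cacna2d2 probe set at 3.84, each the highest of its 6 values. Changes were -0.17 ± 0.14 for Cacng6 and -0.09 ± 0.10 and 0.02 ± 0.06 for Cacna2d2 (SE, limma), with adjusted p between 0.598 and 0.914.

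The change of the T-type pores held its direction whichever array was left out. That outcome was fixed beforehand, because the groups did not overlap for either gene, so only the size of the change is informative. Fits that alter only the filter, the variance estimate or the replicate block cannot alter the change itself. With each of the 6 arrays left out in turn, Cacna1g ranged from 0.71 to 1.02 and Cacna1h from -1.19 to -0.91. Over all 17 alternative fits Cacna1g kept a positive change, with an adjusted p from 0.0805 to 0.327, and Cacna1h a negative one, with an adjusted p from 0.0488 to 0.226. The dimmer Cacna1c probe set stayed negative, from -0.44 to -0.24, with an unadjusted p under 0.05 in 10 of the 17.

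**Figure D4:**
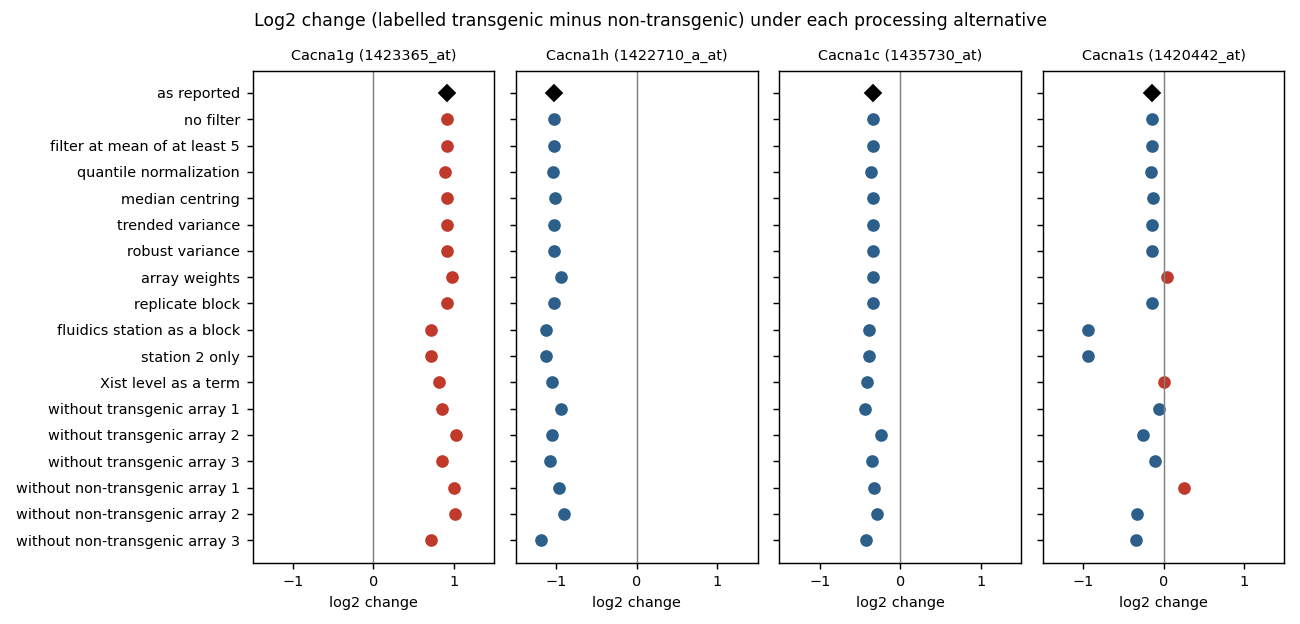
Log2 change (x axis, labelled transgenic minus non-transgenic) of 4 calcium channel probe sets as reported (diamond) and under 17 alternative fits (circles, red above 0 and blue below), 1 row per fit. Cacna1g stays to the right of 0 and Cacna1h and the dimmer Cacna1c probe set to the left, whereas Cacna1s ranges from -0.94 to 0.26.

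Markers of several cell types of the heart gave the following values beside the T-type result. Of 8 atrial markers, 4 lay near the background, among them the atrial myosin light chain Myl7 (2.29 to 2.38) and sarcolipin, Sln (2.45 to 2.54), on all arrays. The summed log2 level of the atrial list was 14.44 to 14.70 in the labelled transgenic group against 12.16 to 12.77. That sum is almost all Nppa, which ventricular muscle also expresses under load and which alone of the list passed; Dkk3 was at 0.69 ± 0.28, and Stard10 and Myl4 went the other way, at -0.27 ± 0.19 and -0.12 ± 0.11 (change ± SE). Of 10 sinoatrial node and conduction markers, 5 were measured, 3 lay near the background, including the nodal transcription factors Shox2 and Isl1, and 2 were not analysed here. Their summed level was 9.39 to 10.02 against 8.75 to 9.28, and none passed. The gap in that sum is nearly all Smoc2, at 9.41 ± 0.41 against 8.60 ± 0.36 (SD, n = 3). The nodal factor Tbx3 differed by 0.14, Cntn2 by 0.09, Tbx18 by 0.002 and Cpne5 by -0.01. Of 11 neuron and Schwann cell markers, 4 were measured, with a summed level of 7.72 to 8.14 against 7.37 to 7.47. The gap in that sum is nearly all Uchl1, a neuronal ubiquitin hydrolase, at 0.78 ± 0.17 (adjusted p = 0.0956, limma); the other 3 differed by -0.06 to 0.12, and the neuronal markers Tubb3, Snap25, Syt1 and Th lay near the background. Of 10 smooth muscle and pericyte markers, 9 were measured and none passed, with 8 negative and 1 positive and a median change of -0.18. At an unadjusted p under 0.05, 3 were lower, Abcc9 (-0.36 ± 0.08), Tagln (-0.33 ± 0.13) and Myh11 (-0.18 ± 0.07), and Des was higher (0.30 ± 0.07). Their summed level, which the brightest genes set, overlapped at 14.80 to 14.90 and 14.80 to 14.94. All 8 endothelial markers were measured, with sums of 12.08 to 12.34 and 12.07 to 12.29. All 9 fibroblast markers were measured, at a summed level of 14.13 to 14.33 against 13.73 to 13.85, and 8 of 9 macrophage markers, at 12.55 to 12.77 against 12.13 to 12.28. None of either list passed, although 7 and 6 of them were higher at an unadjusted p under 0.05. Over all 11016 genes tested, 18.5% were at such a p in either direction, which also holds beside the smooth muscle counts. Apart from what these levels show, the part of other cells in the Cacna1g and Cacna1h values was not tested.

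Of the 16 other voltage-gated calcium channel genes listed, 3 were measured, 12 lay near the background, with means of 1.93 to 3.12, and 1 was not analysed here. None of the 3 passed. Cacnb1, the beta subunit best known from skeletal muscle, read 3.89, 4.84 and 4.24 on the labelled transgenic arrays and 3.06, 3.52 and 3.49 on the others. The groups did not overlap, at a change of 0.96 ± 0.26 (SE, limma, adjusted p = 0.14), but the probe set was dim and its non-transgenic values straddled the background limit. Cacna1a, the P/Q-type pore of neurons, was at 0.06 ± 0.07 (adjusted p = 0.681), and Cacng2, a gamma subunit known from the brain, at -0.09 ± 0.11.

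Genes that act on or beside the L-type channel did not pass either. Of 25 regulators, 15 were measured and none was called in limma. At an unadjusted p under 0.05 there were 4, all higher, against 18.5% of all genes tested in either direction. The median change was -0.03. Prkar1a, a regulatory subunit of protein kinase A, which phosphorylates the channel complex, read 12.49, 12.67 and 12.60 against 12.35, 12.21 and 12.18, a change of 0.34 ± 0.08 (adjusted p = 0.122). Ahnak, a giant scaffold protein that binds the beta subunit, was at 0.42 ± 0.12 (adjusted p = 0.146). In the fit to all probe sets, the other probe set of Prkar1a was at 0.49 ± 0.07 (limma, adjusted p = 0.0671). The dimmer ones of Ahnak were at 0.71 ± 0.10 (adjusted p = 0.0671) and 0.79 ± 0.20 (adjusted p = 0.156), and none of these passed. Of 23 genes of the dyad, where the L-type channel faces the release channel, and of calcium flux, 17 were measured and none was called. The median change was -0.10, against 0.0099 over all genes tested. At an unadjusted p under 0.05 there were 2, both lower, against the same 18.5% of all genes. These 2 were Trdn, triadin, at -0.30 ± 0.12 (adjusted p = 0.249) and Ryr2, the release channel itself, at -0.29 ± 0.12 (adjusted p = 0.27). The 6 measured Trdn probe sets disagreed in sign, from -0.35 to 0.51. In the limma fit to all probe sets, the same Ryr2 probe set was at an unadjusted p of 0.0516. Its other probe set was at -0.24 (unadjusted p = 0.235).

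The 3 genes whose 6 values lay closest to those of Cacna1h, each centred on its own mean, were Pdp2, a pyruvate dehydrogenase phosphatase, Gnai1, a G protein alpha subunit, and Wnk2, a kinase. Their root mean square difference from Cacna1h over 6 arrays was 0.166, 0.177 and 0.177 log2 units, the smallest of 11015 genes. All 3 were lower on the labelled transgenic arrays, as the measure demands, with changes of -1.004 for Pdp2 (limma, adjusted p = 0.0787), -0.73 for Gnai1 (adjusted p = 0.115) and -0.84 for Wnk2 (adjusted p = 0.0283).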

How the data were processed

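The deposited log2 values, 1 per probe set and array, were made by the authors with GCRMA, a background correction and normalization for Affymetrix arrays, per the submitters' processing notes; its version is not given in the sources used here. They were used as deposited. Of 45101 probe sets, 64 control ones were left out. Genes were named from the platform annotation of 2016, and all 20 calcium channel probe sets had the same symbol in RefSeq GRCm38.p6. Probe sets with a mean above 3.285 were fitted with limma 3.58.1 in R 4.3.3 (2-sided, Benjamini-Hochberg over all 22518); a second fit used the brightest probe set of each of 11016 genes and was adjusted over those. All adjusted p-values are limma's. Named genes were the members, the passing genes of each pathway list or else the 2 with the smallest p, and the 3 nearest to the member with the smallest p; Cacng2 and the single marker genes were picked with their values known. The members and lists were chosen with earlier results of these data known. The fit was tested on simulated data. The instrument records gave station and typed names. Replicate numbers did not pair the arrays: deviations of same-numbered arrays correlated at -0.0831, -0.174 and -0.00672.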

Additional observations from a re-analysis of the deposited data

How the results depend on the processing

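The precision is limited by 3 arrays per group and, below a level of about 3.285, by the background. Of 235 values of the 14 member probe sets over 17 alternative fits, 220 kept their sign and their side of the threshold, 14 changed sign and 1 passed anew. In fits that alter only the filter, the variance estimate or the replicate block, no sign could change. Blocking the station and using station 2 alone give the same change, so the fits are not separate checks. The member count of 0 in limma (3 at an unadjusted p under 0.05) became 1 with the filter at a mean of at least 5. This was Cacna1h, which met that filter only through its non-transgenic values. The count was 0 in all 16 others, with 2 to 4 member probe sets at an unadjusted p under 0.05. The count over all probe sets, 49, was 15 with no filter, 143 with the filter at 5, 108 with trended variance, 2 with the station as a block and 0 within station 2 alone or with the Xist level as a term (3771 and 3126 at an unadjusted p under 0.05). With the replicate block it was 0 (3324 unadjusted), with no member passing. With single arrays left out it ran from 0 to 75 (2532 to 3455 unadjusted): leaving out labelled transgenic array 1 gave 75, non-transgenic array 1 gave 5 and each of the other 4 gave 0. The count of 62 genes was 20 with the station as a block and 0 with the replicate block (1820 unadjusted). When the station was blocked, or only station 2 used, Cacnb2 (brighter) was at -0.064, Cacna2d2 (brighter) at 0.025 and Cacng6 at 0.019. Cacna1s was at 0.044 with array weights, 0.0096 with the Xist level as a term and -0.35 to 0.26 with single arrays left out (0.26 without non-transgenic array 1). Cacna2d1 1425861_x_at was at -0.013 with the Xist level as a term and -0.051 to 0.14 with single arrays left out (lowest without labelled transgenic array 1), and the mean of the gene's probe sets was 0.12. The brighter Cacna1c probe set was at -0.10 to 0.071 with single arrays left out (0.071 without labelled transgenic array 2, 0.038 without non-transgenic array 1), and the brighter Cacna2d2 at -0.15 to 0.012 (0.012 without non-transgenic array 3). Causes of these shifts were not tested, other than fewer probe sets or arrays where the fit leaves them out.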

Other observations

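Labelled transgenic array 2 held the lowest value of its group at 8 of the 14 tested calcium channel probe sets, array 1 at 5 and array 3 at 1. Both Cacna1c probe sets, both Cacnb2 probe sets, Cacna1g and 3 of the 4 tested Cacna2d1 probe sets were among the 8. Repeat probe sets of a gene are not independent. No such share over all probe sets tested is given here, so the count is not shown to be particular to these genes. Xist was at 2.58 on that array and at 9.48 on the other 2 of its group, and no relation between these was tested.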
